A study of Homo sapiens with 8 samples.

Results

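The 9 genes described here encode the subunits of the hypoxia-inducible factors (HIF1A, EPAS1, HIF3A and ARNT), the 3 prolyl hydroxylases that mark them for destruction (EGLN1, EGLN2 and EGLN3), the ubiquitin ligase subunit VHL and the asparaginyl hydroxylase HIF1AN. They were chosen by gene symbol, and all 9 were found among the 18164 genes of the deposited table. RNA was sequenced from 8 whole tumors grown from HCC1937, a long-established line of human triple-negative breast cancer, after injection into the inguinal mammary fat pads of NCG mice (NOD/ShiLtJGpt-Prkdcem26Cd52Il2rgem26Cd22/Gpt), hosts that lack mature lymphocytes. For 4 tumors the hosts were dosed at 500 mg/kg/day with NMN (nicotinamide mononucleotide, from which cells make NAD+), and for 4 they were given vehicle, whose composition and whose mice's age are not given in the sources used here. The tumors are called NMN 1 to 4 and Vehicle 1 to 4. All groups share the same cell line and host strain, and whether the tumors are from 8 separate mice is not stated, so p-values measure only the spread between these samples.

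A HIF is a dimer of an oxygen-regulated alpha subunit and the stable beta subunit ARNT. When oxygen is present, EGLN enzymes hydroxylate prolines of the alpha subunit, VHL binds the hydroxylated protein, and the proteasome destroys it. HIF1AN hydroxylates an asparagine near the end of the alpha subunit and blocks its contact with the coactivators EP300 and CREBBP. Oxygen therefore acts on HIF mainly through protein stability, whereas EGLN1 and EGLN3 are themselves HIF target genes, so that their transcripts form a negative feedback on the pathway. EGLN2 is not a HIF-induced gene in most cells.

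Levels are TPM, transcript abundances scaled to a fixed library total, a unit already divided by transcript length, so that levels can be compared between genes. TPM keeps no record of read depth, and the depth of each library is therefore unknown. Between 16451 and 16662 genes were above 0 in each library. The basal keratin genes KRT5, KRT14 and KRT17 ranged from 1433 to 6953 TPM, and the progesterone receptor gene PGR from 0 to 0.02 TPM, whereas ESR1 ranged from 3.37 to 6.00 TPM and ERBB2 from 77.6 to 130 TPM. Libraries differed in host-type tissue. The summed level of 15 skeletal muscle markers was 54.9, 74.3 and 61.3 TPM in NMN 1 to 3. It was 637 TPM in NMN 4 and between 432 and 2491 TPM in the Vehicle tumors. Most of the sums in NMN 1 to 3 came from 1 marker, MB, at 44.3, 65.8 and 52.85 TPM. MB went the other way, with 23.6 TPM in NMN 4 and 12.2 to 32.7 TPM in the Vehicle tumors. In whole tumors, fewer cells of a type and less RNA per cell cannot be told apart. Genes were tested when at least 1 TPM was reached in at least 4 libraries, with the moderated linear model of limma on log2(TPM + 1). Of 13358 genes tested, 0 passed at an adjusted p under 0.05 (0% called), and 927, or 6.94%, had an unadjusted p under 0.05. Of all tested genes, 4.79% reached this with NMN higher and 2.15% with NMN lower, which is 640 against 287 genes, and 640 against 514 after quantile normalization.

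The transcripts of HIF1A, EPAS1, ARNT, VHL, HIF1AN and EGLN2 overlapped between NMN and Vehicle tumors with ratios of mean TPM from 0.904 to 1.06, while the feedback genes EGLN1 and EGLN3 had higher means in NMN tumors. The untested subunit gene HIF3A, near 1 TPM, also had the higher mean in NMN tumors, at a ratio of 2.58. None of the 8 tested genes passed the test across all genes. EGLN1 was the only tested gene of the 8 in which the groups did not overlap. Over all tested genes 3.05% had no overlap, 2.08% with NMN higher and 0.966% with NMN lower. EGLN3 had the largest difference of the 8, but NMN 4 held the lowest EGLN3 level of all 8 tumors.

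**Figure D1:**
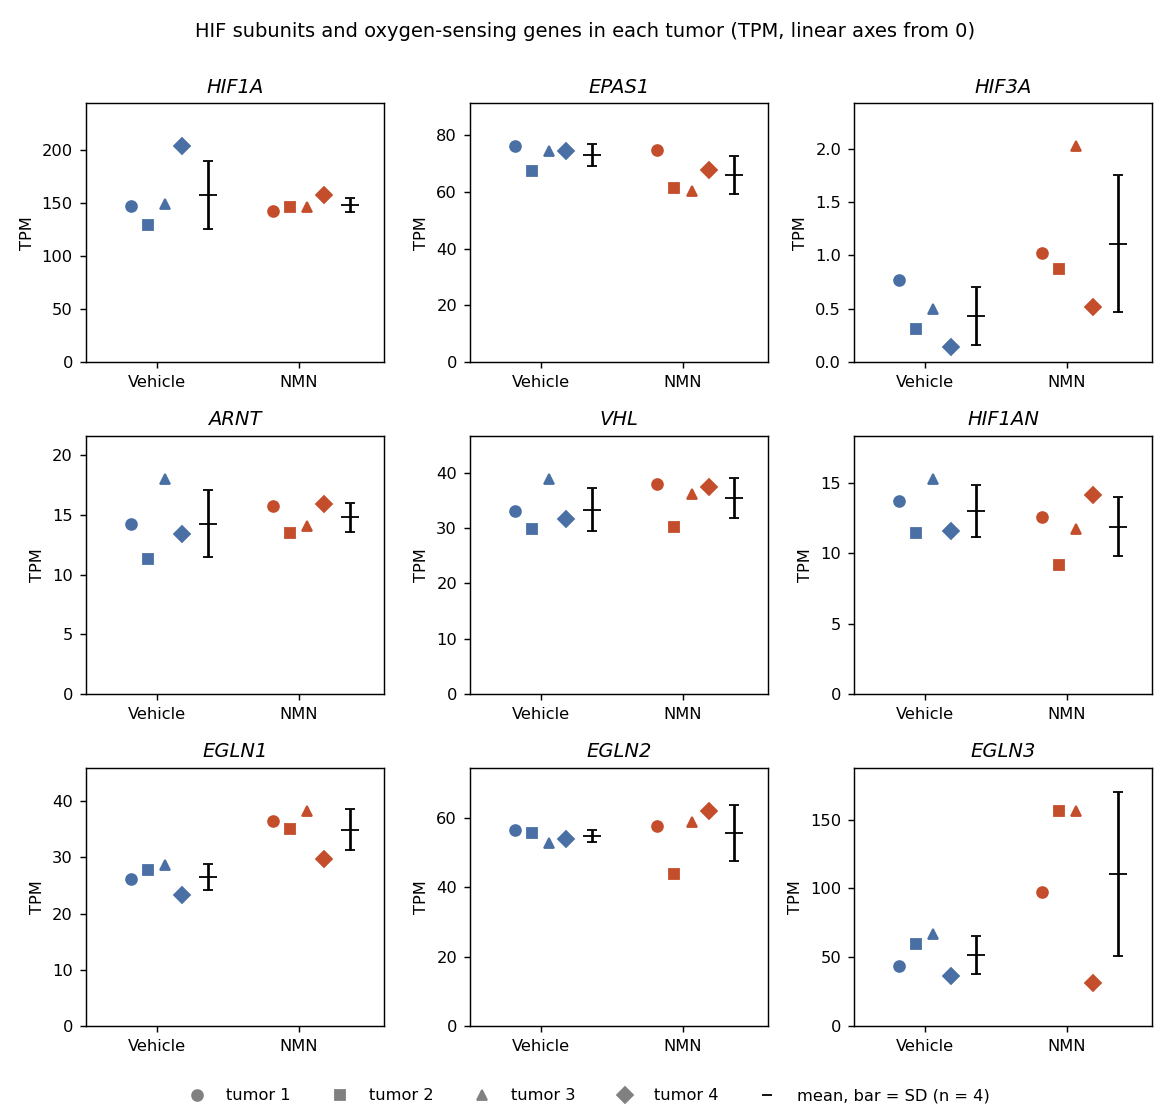
TPM of the 9 genes in each tumor (vertical axes, linear and starting at 0), Vehicle in blue and NMN in red, with marker shape giving the tumor number and the black bar the mean and SD of 4 tumors. EGLN1 separates the groups (23.3 to 28.7 against 29.8 to 38.3 TPM), EGLN3 is between 97.3 and 156 TPM in NMN 1 to 3 but 31.5 TPM in NMN 4, and the other genes overlap between groups.

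Averaged over the 8 tumors, HIF1A was the most abundant transcript of the 9 at 153 TPM, above 93.0% of tested genes. EGLN3 followed at 81.0 TPM, EPAS1 at 69.6 TPM, EGLN2 at 55.2 TPM, VHL at 34.4 TPM, EGLN1 at 30.7 TPM, ARNT at 14.5 TPM, HIF1AN at 12.4 TPM and HIF3A at 0.769 TPM. The order was not the same in every tumor. HIF1A exceeded EGLN3 in 4 of 4 Vehicle tumors but in 2 of 4 NMN tumors, and EGLN3 exceeded EPAS1 in 0 of 4 Vehicle tumors and in 3 of 4 NMN tumors. VHL exceeded EGLN1 in all 4 Vehicle tumors and in 2 of the NMN tumors. ARNT and HIF1AN had ranges of 11.3 to 18.0 and 9.13 to 15.3 TPM that overlapped, and ARNT was the higher of the pair in 7 of 8 tumors. EPAS1 exceeded EGLN2, EGLN2 exceeded VHL, EGLN1 exceeded ARNT and HIF1AN exceeded HIF3A in all 8 tumors.

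HIF1A encodes HIF-1 alpha, the broadly expressed alpha subunit (chromosome 14, 61695513 to 61748259, plus strand, GRCh38). Its level was 143, 146, 146 and 157 TPM in NMN 1 to 4 and 148, 130, 149 and 203 TPM in Vehicle 1 to 4. All 4 NMN values lay inside the Vehicle range, and Vehicle 4 stood highest. The log2 fold change of NMN over Vehicle was -0.07 ± 0.13 (estimate ± standard error), with a 95% interval from -0.34 to 0.21 (limma, adjusted p = 0.967). Without Vehicle 4 it was 0.06. Vehicle 4 also had the highest summed level of 6 basal epithelial markers, 22147 TPM against 8780 to 12524 TPM in the other Vehicle tumors, and the part of this difference in its HIF1A level was not tested.

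EPAS1 encodes HIF-2 alpha, the alpha subunit best known from endothelium and kidney (chromosome 2, 46293667 to 46386703, plus strand). It had 74.7, 61.5, 60.3 and 67.8 TPM in NMN 1 to 4 against 76.1, 67.4, 74.5 and 74.5 TPM in the Vehicle tumors in order. NMN 2 and NMN 3 lay below every Vehicle tumor, and NMN 1 and NMN 4 lay inside the Vehicle range. The log2 fold change was -0.15 ± 0.10 and its 95% interval -0.37 to 0.07 (limma, adjusted p = 0.877). The endothelial genes PECAM1 and CDH5 ranged from 0.36 to 0.98 TPM and from 0.04 to 0.18 TPM, and ESAM from 2.44 to 5.73 TPM. KDR had 2.92 to 5.26 TPM in NMN tumors and 1.05 to 2.60 TPM in Vehicle tumors, without overlap. TEK went the other way, also without overlap, at 0.06 to 0.24 TPM in NMN and 0.31 to 0.54 TPM in Vehicle tumors. Of all tested genes 3.05% had no overlap. The sum of 10 endothelial markers ranged from 8.29 to 13.3 TPM, and 5 of these markers had the higher mean in NMN tumors. EPAS1 varied little, with an SD within groups of 0.11 on the log2(TPM + 1) scale that was larger than that of 8.77% of tested genes.

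HIF1A made up 65.3% to 70.1% of the summed alpha-subunit TPM in NMN tumors and 65.7% to 73.2% in Vehicle tumors, and EPAS1 nearly all of the rest. The ratio of HIF1A to EPAS1 was 1.91 to 2.42 in NMN tumors and 1.92 to 2.73 in Vehicle tumors, with overlap between the groups. The third alpha gene, HIF3A, whose products include inhibitors of the other HIFs (chromosome 19, 46297046 to 46343433, plus strand), had 1.02, 0.87, 2.02 and 0.52 TPM in NMN 1 to 4 against 0.77, 0.31, 0.50 and 0.14 TPM in Vehicle 1 to 4. NMN 1 to 3 lay above every Vehicle tumor and NMN 4 inside the Vehicle range. With NMN 4 set aside, 3.84% of tested genes had all NMN tumors above the Vehicle range and 6.15% had all below it. Only 2 libraries reached 1 TPM, so HIF3A was not part of the limma fit. The difference of its mean log2(TPM + 1) was 0.53, with p = 0.0571 by the exact two-sided permutation test, in which 4 tumors against 4 cannot give less than 0.0286. At such levels the size depends on the pseudocount, so that adding 0.1 TPM in place of 1 gave 1.2, and adding 5 TPM gave 0.17.

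ARNT, the shared beta subunit (chromosome 1, 150809705 to 150876768, minus strand), had 15.7, 13.4, 14.1 and 15.9 TPM in NMN 1 to 4 against 14.2, 11.3, 18.0 and 13.4 TPM in Vehicle 1 to 4. The NMN tumors lay inside the Vehicle range, and the log2 fold change was 0.06 ± 0.15 (exact two-sided permutation test, p = 0.657). The summed TPM of the alpha genes exceeded that of ARNT in every tumor, by 13.9 to 15.5 times in NMN tumors and by 12.4 to 20.8 times in Vehicle tumors. The alternative beta subunit gene ARNT2 reached at most 1.16 TPM and was not tested.

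VHL, the substrate-binding subunit of the ligase (chromosome 3, 10141008 to 10152220, plus strand), had 37.9, 30.2, 36.1 and 37.3 TPM in NMN 1 to 4 against 33.0, 29.8, 38.9 and 31.5 TPM in Vehicle 1 to 4. All 4 NMN values lay inside the Vehicle range, and the log2 fold change was 0.09 ± 0.12 and its interval -0.18 to 0.35 (limma, adjusted p = 0.958). HIF1AN, also known as factor inhibiting HIF (chromosome 10, 100529072 to 100559998, plus strand), had 12.6, 9.13, 11.7 and 14.1 TPM in NMN 1 to 4 against 13.7, 11.5, 15.3 and 11.6 TPM in Vehicle 1 to 4. Only NMN 2 lay outside the Vehicle range, below it, and the log2 fold change was -0.13 ± 0.16 and its interval -0.48 to 0.22 (limma, adjusted p = 0.957). HIF1AN overlaps NDUFB8 on the opposite strand, a gene at 108 to 138 TPM, and the sources used here do not say whether reads were counted by strand.

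The hydroxylase genes differed from each other. EGLN2, the form that is not part of the feedback in most cells (chromosome 19, 40798996 to 40808433, plus strand), had 57.8, 43.9, 58.8 and 62.1 TPM in NMN 1 to 4 against 56.6, 55.7, 52.8 and 53.9 TPM in Vehicle 1 to 4. NMN 1, NMN 3 and NMN 4 lay above the narrow Vehicle range and NMN 2 below it, and the log2 fold change was 0.01 ± 0.12 and its interval -0.24 to 0.27 (limma, adjusted p = 0.997). NMN 2 and Vehicle 2 had the lowest median-of-ratios scaling factors of the 8 libraries, 0.922 and 0.923. ARNT, VHL, HIF1AN and EGLN2 had their lowest NMN level in NMN 2, and after that scaling the log2 fold change of EGLN2 was 0.002. EGLN2 shares its locus with the read-through gene RAB4B-EGLN2, not analysed here, and reads of shared exons cannot be assigned with certainty.

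EGLN1 encodes PHD2, the main oxygen sensor among the hydroxylases in most cells (chromosome 1, 231363751 to 231425044, minus strand). Its level was 36.5, 35.1, 38.3 and 29.8 TPM in NMN 1 to 4 and 26.3, 27.8, 28.7 and 23.3 TPM in Vehicle 1 to 4. The groups did not overlap, but NMN 4 was only just above Vehicle 3. Mean levels were 34.9 ± 3.68 TPM and 26.5 ± 2.37 TPM (SD, n = 4 each), a ratio of 1.32. The log2 fold change was 0.38 ± 0.12, with an unadjusted 95% interval from 0.13 to 0.64, an unadjusted p of 0.00732 and an adjusted p of 0.413 by limma, so EGLN1 did not pass. The exact two-sided permutation test gave p = 0.0286, the smallest that this design allows. Across 17 other settings its log2 fold change stayed between 0.33 and 0.46 and its adjusted p between 0.177 and 1.000.

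EGLN3 encodes PHD3, the hydroxylase whose transcript is the most strongly induced by hypoxia in many cell types (chromosome 14, 33924231 to 34462774, minus strand). Its level was 97.3, 156, 156 and 31.5 TPM in NMN 1 to 4 and 43.9, 59.7, 66.9 and 36.4 TPM in Vehicle 1 to 4. NMN 1 to 3 lay above every Vehicle tumor, and NMN 4 lay below every one of them. Mean levels were 110 ± 59.4 TPM and 51.7 ± 14.0 TPM (SD, n = 4 each), a ratio of 2.13. The log2 fold change was 0.88 ± 0.42 and its interval -0.05 to 1.80 (limma, adjusted p = 0.755), and the exact two-sided permutation test gave p = 0.171. Its SD within groups, 0.81 on the log2(TPM + 1) scale, was larger than that of 98.8% of tested genes. Without NMN 4 the log2 fold change was 1.39 ± 0.23 and EGLN3 passed (limma, adjusted p = 0.0335). In that fit 54 of 13358 genes passed (0.404%), 27 of them with NMN higher (0.202%). NMN 4 held the lowest EGLN3 level, so leaving it out was bound to raise the difference. With any other single tumor left out, the adjusted p of EGLN3 by limma was at least 0.65. EGLN1 did not pass without NMN 4, at 0.46 ± 0.11 (limma, adjusted p = 0.177).

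NMN 1 to 3, with the high EGLN3 levels, were also the tumors with low sums of muscle markers, 54.9 to 74.3 TPM. Their sums of 8 fibroblast markers, 121 to 167 TPM, were also low. The fibroblast sum was 237 TPM in NMN 4 and 192 to 291 TPM in the Vehicle tumors. Most of each fibroblast sum came from the collagen genes COL1A1, COL1A2 and COL3A1. DCN and LUM were at 0.05 TPM or less in every library. Of the 15 muscle markers 1, MB, had the higher mean in NMN tumors, and 0 were at 0 in all libraries. The part of host-type tissue in the EGLN1 and EGLN3 levels was not tested. Among the Vehicle tumors alone, muscle sums ran from 432 TPM in Vehicle 4 to 2491 TPM in Vehicle 3. In this group EGLN3 was also lowest in Vehicle 4, at 36.4 TPM, and highest in Vehicle 3, at 66.9 TPM. The order was reversed between Vehicle 1 and Vehicle 2, with muscle sums of 810.5 and 661 TPM and EGLN3 at 43.9 and 59.7 TPM. The fibroblast sum was highest in Vehicle 4, at 291 TPM. The annotated EGLN3 locus also spans SPTSSA on the same strand, at 80.1 to 118 TPM, and EGLN3-AS1 on the other.

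**Figure D2:**
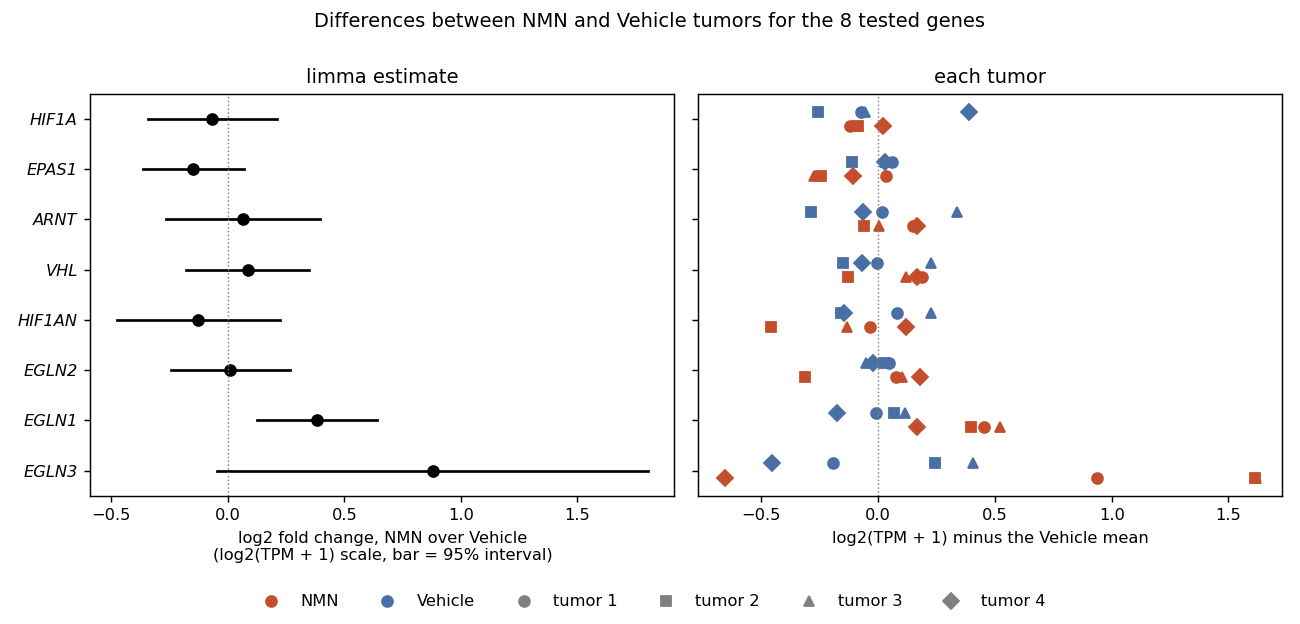
Left, log2 fold change of NMN over Vehicle for the 8 tested genes with its unadjusted 95% interval from limma. Right, log2(TPM + 1) of each tumor minus the Vehicle mean, Vehicle in blue above and NMN in red below each line. The subunits, VHL, HIF1AN and EGLN2 scatter around 0, EGLN1 lies to the right in all 4 NMN tumors, and EGLN3 ranges from -0.66 in NMN 4 to 1.62 in NMN 3, whose point is hidden behind that of NMN 2 at 1.61.

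The feedback genes were set beside HIF1A, the most abundant factor transcript. The ratio of EGLN3 to HIF1A TPM was 0.681, 1.07, 1.07 and 0.200 in NMN 1 to 4 and 0.297, 0.461, 0.449 and 0.179 in Vehicle 1 to 4. NMN 1 to 3 were above every Vehicle tumor and NMN 4 was inside the Vehicle range. The ratio of EGLN1 to HIF1A was 0.256, 0.240, 0.262 and 0.189 in NMN 1 to 4 and 0.178, 0.214, 0.193 and 0.114 in Vehicle 1 to 4, so that here too NMN 4 was inside the Vehicle range. Vehicle 4 combined the highest HIF1A level of all 8 tumors with the lowest EGLN1 level and the second lowest EGLN3 level. Within the Vehicle group the order of the tumors was 3, 2, 1 and 4 from highest to lowest for both EGLN1 and EGLN3. Within the NMN group the order differed, at 3, 1, 2 and 4 for EGLN1 and 3, 2, 1 and 4 for EGLN3.

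The 3 hydroxylase genes made up different shares of their summed level in different tumors. EGLN3 held 50.8%, 66.4%, 61.7% and 25.6% of the summed EGLN TPM in NMN 1 to 4 and 34.6%, 41.7%, 45.1% and 32.1% in Vehicle 1 to 4. NMN 1 to 3 had the 3 highest shares and NMN 4 the lowest of all 8. EGLN2 was the most abundant of the 3 in NMN 4, at 50.3%, and in Vehicle 1 and Vehicle 4, at 44.7% and 47.5%, and EGLN3 was in the other 5 tumors. The summed EGLN level was 192, 235, 253 and 123 TPM in NMN 1 to 4 and 114 to 148 TPM in Vehicle tumors, while the summed alpha-subunit level was 208 to 226 TPM in NMN tumors and 197 to 278 TPM in Vehicle tumors.

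**Figure D3:**
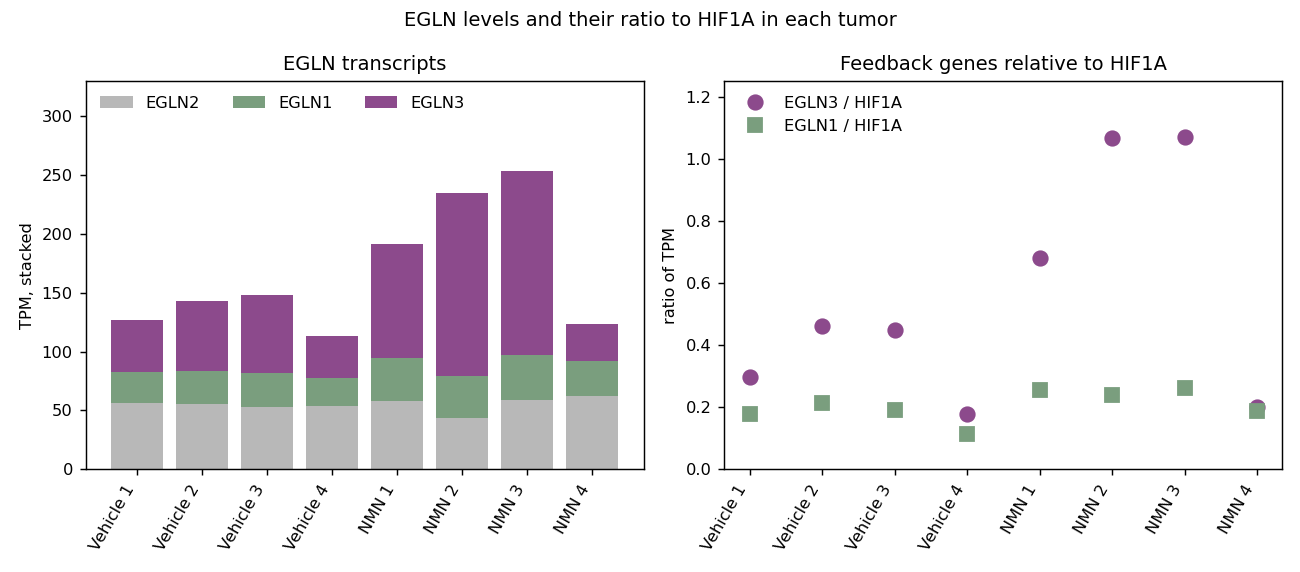
Left, stacked TPM of EGLN2, EGLN1 and EGLN3 in each tumor. Right, ratio of EGLN3 (circles) and EGLN1 (squares) to HIF1A TPM in each tumor. The bars of NMN 1 to 3 are the tallest and hold the most EGLN3, and NMN 4 lies among the Vehicle tumors, with an EGLN3 to HIF1A ratio of 0.200.

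HIF dimers bind a short core that can read ACGTG or GCGTG, and the promoters of the 3 hydroxylase genes and of HIF1A are shown to compare the feedback genes with a gene that is not one. RefSeq promoter windows on GRCh38.p14, from 250 bases before to 50 bases after an annotated start, were matched for 8 of the 9 genes, in 12 windows. The letters were searched on both strands, where overlapping matches count as 1 site. ACGTG was found in 21.4% and GCGTG in 36.5% of all 35116 promoter windows of that length. Capitals mark the matches, and each sequence is written 5′ to 3′ on the strand of its gene.
EGLN1, chr1:231422284-231422312, minus strand: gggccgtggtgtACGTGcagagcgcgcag
EGLN2, chr19:40799130-40799159, plus strand: gcggggcgcggtCACGTGcccaccgggcga
HIF1A, chr14:61695297-61695325, plus strand: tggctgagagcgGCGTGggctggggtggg
EGLN3, chr14:33951082-33951324, minus strand: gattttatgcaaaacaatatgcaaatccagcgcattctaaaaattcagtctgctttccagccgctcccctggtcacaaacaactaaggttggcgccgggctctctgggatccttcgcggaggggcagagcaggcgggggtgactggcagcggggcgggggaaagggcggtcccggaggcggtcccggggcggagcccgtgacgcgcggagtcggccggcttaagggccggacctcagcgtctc

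The EGLN1 window held 1 ACGTG, whose first base lay 13 bases before the RefSeq start. All 300 bases of that window lie in an exon of EGLN1 in GENCODE 29, whose longest annotated extent begins further upstream, at 231425044. The first EGLN2 window held a CACGTG, which reads ACGTG on each strand, 49 bases before the start, and EGLN2 had similar means in the groups. The first HIF1A window held 1 GCGTG, 204 bases before the start. The EGLN3 window, whose first 243 bases are printed, held neither core, and this says only that these letters are not in that window. EPAS1 held 1 GCGTG and the first HIF3A window 3, and the windows of ARNT and HIF1AN held neither. A match is a description of the letters and not a site shown to be bound.

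For EGLN1, EGLN3 and EPAS1, up to 5 tested genes with the most similar pattern were found from the root-mean-square difference over the 8 libraries of log2(TPM + 1) centred on each gene's mean. For EGLN3 these were PPFIA4, HILPDA, PPP1R1A, CA9 and ENO2, at differences of 0.30 to 0.33. In all but HILPDA, NMN 1 to 3 lay above every Vehicle tumor, as they did for EGLN3. This likeness follows from how the genes were picked. CA9, a carbonic anhydrase of the cell surface, was at 38.6, 50.2, 50.3 and 12.5 TPM in NMN tumors 1 to 4 and at 9.05, 14.2, 16.4 and 13.8 TPM in Vehicle 1 to 4. HILPDA, a lipid droplet protein, had 59.1, 125, 93.6 and 37.9 TPM in NMN 1 to 4 against 41.2, 60.6, 51.8 and 27.9 TPM in Vehicle 1 to 4, where NMN 1 lay below Vehicle 2. The 5 for EGLN1 were CAMK1D, LPIN3, DBP, MXI1 and YPEL3, at differences of 0.075 to 0.092. MXI1, an antagonist of MYC, had 35.5, 43.0, 41.6 and 31.2 TPM in NMN 1 to 4 against 29.7, 30.6, 31.4 and 23.8 TPM in Vehicle 1 to 4, with NMN 4 just below Vehicle 3. The 4 named for EPAS1, TMEM167A, MRM2, GDF9 and COA3, differed from it by 0.040 to 0.046. Adjusted p-values of these 14 genes ran from 0.357 to 0.956 in the limma fit.

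Other genes around the HIF system were grouped by role, and 0 of them passed the limma test over all genes in any group. Means are of log2(TPM + 1), medians are of the log2 fold change of NMN over Vehicle, and the median of all tested genes was 0.004. Of 20 tested HIF targets of glycolysis and glucose uptake, 20 had a mean higher with NMN than with vehicle, where 51.0% of all tested genes did and 49.0% had a lower one, with a median of 0.44. The groups did not overlap in 3 of them, ALDOC, GPI and ENO1, all higher in NMN tumors, as in 2.08% of all tested genes. The glucose transporter gene SLC2A1 stood at 0.64 and PDK1 at 0.70. Of 30 other HIF targets, 29 had the higher mean, with a median of 0.53. Of these 30, 7 were without overlap, all higher, beside the same 2.08% of all tested genes. CA12, a carbonic anhydrase, was the 1 with the lower mean, at -0.38 ± 0.19. Like EGLN1, the mitophagy receptor gene BNIP3 and the mTORC1 inhibitor gene DDIT4 were among those without overlap, with GBE1, INSIG2, PLOD1, PLOD2 and P4HA1, whereas ERO1A was not. NMN 4 lay inside the Vehicle range for 15 of the 20 genes of the first group and 21 of the 30 of the second. It lay above that range in 4 and 8 genes and below it in 1 and 1. The share of all tested genes with NMN 4 inside the Vehicle range was not counted, so these counts have no background. NMN 1 to 3 all lay above that range in 15 and 18, where 3.84% of all tested genes did so. NMN 1 to 3 were also the tumors with low muscle and fibroblast sums, whose part in these differences was not tested. The log2 fold change of EGLN3, 0.88, lay above both medians, and that of EGLN1, 0.38, below both. Without NMN 4, the limma test called ALDOC, ENO2 and PDK1 in the first group, all higher in NMN tumors. In the second it called 6 genes, BNIP3, ERO1A, CA9, PPFIA4, VEGFA and NDRG1, also all higher. Of all tested genes, 0.202% were called with NMN higher in that fit. In each of these called targets NMN 4 held the lowest NMN level, so leaving it out was bound to raise the difference.

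Among the targets were other oxygen-dependent hydroxylases and demethylases. PLOD1 and PLOD2, which hydroxylate lysines of collagen, and P4HA1, which hydroxylates its prolines, had no overlap between the groups and log2 fold changes of 0.58 ± 0.16, 0.35 ± 0.12 and 0.47 ± 0.14, while P4HA2 stood at 0.12 ± 0.13. The histone demethylase gene KDM3A stood at 0.59 ± 0.18 and KDM4B at 0.23 ± 0.19. Their adjusted p-values ran from 0.348 to 0.951 in the limma fit. Of 18 tested 2-oxoglutarate dioxygenases that are not listed as targets, 17 had the higher mean log2(TPM + 1) but with a median of only 0.07, and 0 were without overlap. With 1 tumor left out that median ran from 0.023 (without Vehicle 4) to 0.15 (without NMN 2). Those with the smallest p were KDM7A at 0.39 ± 0.18, P4HTM, a membrane-bound prolyl hydroxylase, at 0.29 ± 0.19 and KDM4C at 0.21 ± 0.14.

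Of 7 tested genes reported to prefer HIF-2, the product of EPAS1, 6 had the higher mean, with a median of 0.27. SLC11A2, an iron transporter, had 47.4, 43.9, 53.3 and 46.1 TPM in NMN 1 to 4 against 37.4, 32.9, 43.0 and 32.2 TPM in Vehicle 1 to 4, the 1 gene of this group without overlap. The growth factor gene TGFA stood at 0.27 ± 0.12, while the cyclin gene CCND1 stood at -0.38 ± 0.18. The erythropoietin gene EPO reached at most 0.36 TPM and was not tested.

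Partners of the HIF proteins gave smaller differences. Of 8 tested dimer partners, coactivators and their competitors, 7 had the higher mean, with a median of 0.21 and 0 without overlap. CITED2 and CITED4, HIF-inducible or related proteins that compete for EP300 and CREBBP, stood at 0.60 ± 0.25 and 0.80 ± 0.24, and the coactivator gene NCOA1 at 0.28 ± 0.15. CITED4 had 39.4, 33.3, 59.4 and 46.7 TPM in NMN 1 to 4 against 18.0, 25.9, 40.1 and 19.4 TPM in Vehicle 1 to 4, where Vehicle 3 lay inside the NMN range. A group of 9 genes covered the VHL ligase and neddylation, which activates its cullin, or the removal of that mark. Of these, 5 means were higher and 4 lower with NMN, the median was 0.01 and 0 were without overlap. UBA3 stood at 0.14 ± 0.11, UBE2M at -0.08 ± 0.10 and COPS5 at -0.06 ± 0.09. Of 14 other regulators of HIF-alpha or EGLN protein, 7 means were higher and 7 lower with NMN, the median was 0.03 and 0 without overlap. SIAH2 and SIAH1, ubiquitin ligases that act on EGLN proteins, stood at 0.33 ± 0.17 and 0.18 ± 0.10, and the adaptor gene WTIP at 0.43 ± 0.24.

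EGLN enzymes use 2-oxoglutarate and are inhibited by succinate and fumarate. Of 14 enzymes that set the levels of these metabolites or of 2-hydroxyglutarate, 6 means were higher and 8 lower with NMN, and the median was -0.01. IDH2, a mitochondrial enzyme that forms 2-oxoglutarate, had 290, 296, 306 and 297 TPM in NMN 1 to 4 against 250, 285, 272 and 228 TPM in Vehicle 1 to 4, without overlap, and its log2 fold change was 0.20 ± 0.09 (limma, adjusted p = 0.695). OGDH, which consumes 2-oxoglutarate, stood at -0.15 ± 0.13 and the succinate dehydrogenase subunit gene SDHD at -0.11 ± 0.11.

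**Figure D4:**
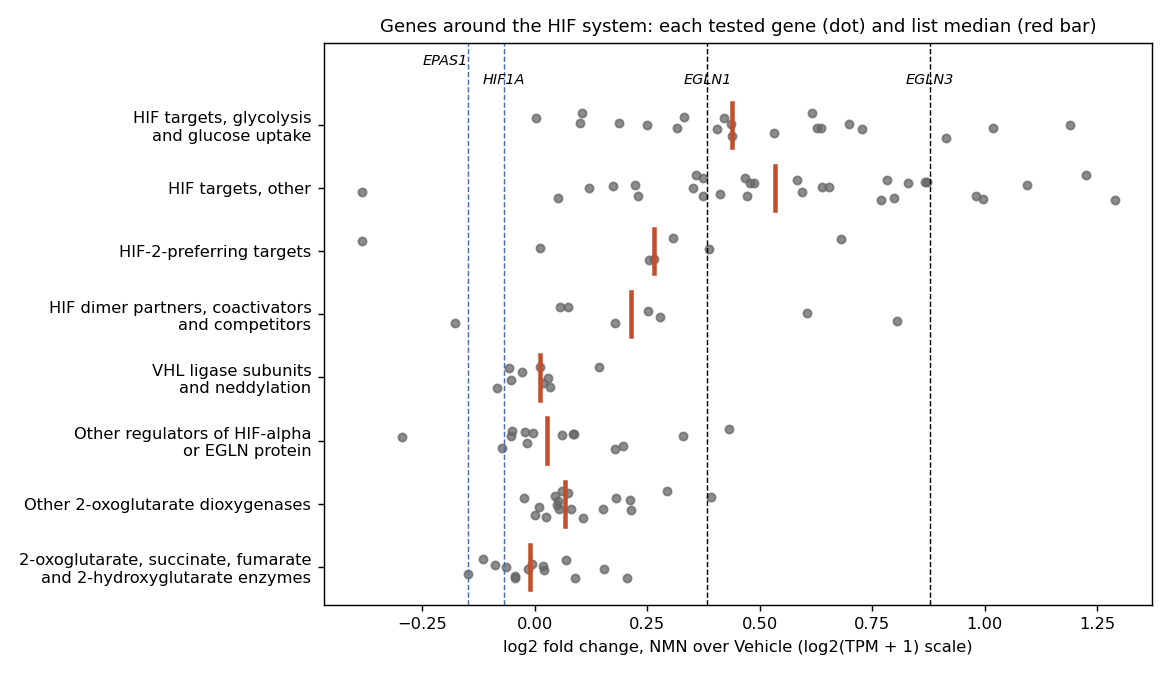
Log2 fold change of NMN over Vehicle for each tested gene (dots) of 8 groups around the HIF system, with the group median as a red bar and dashed lines at the values of EPAS1, HIF1A, EGLN1 and EGLN3. The medians of the first pair of target groups, 0.44 and 0.53, lie between EGLN1 at 0.38 and EGLN3 at 0.88, and those of the ligase, regulator and metabolite groups lie near 0.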

How the data were processed

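The authors deposited 1 table of TPM per gene, 1 column per tumor, named so per the file headers. Per the submitters' processing notes, RSEM 1.2.8, HISAT2 2.1.0 and Bowtie2 2.2.5 were used with the build GRCh38.p13, with no roles stated. The sources used here do not give the handling of mouse reads. All 18164 genes were read, and 13358 passed the filter of 1 TPM in 4 of 8 libraries. limma 3.58.1 (R 4.3.3) with a mean-variance trend was fitted to log2(TPM + 1) with a single term for the group and two-sided tests, with Benjamini-Hochberg adjustment over all tested genes, and was tested on simulated data. TPM gives no depth, so no counting interval is given. Fold changes on this scale understate changes of low genes.

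The members and gene lists were chosen with earlier results of these data known. The rule names all 9 members, from each list up to 3 genes of smallest unadjusted p, genes needed to describe a list, and the 5 genes most like EGLN1, EGLN3 and EPAS1, of which some are not reported here. ENO2, PDK1, SLC2A1, CA12, CCND1, GBE1, INSIG2, SLC2A3, the hydroxylases among the targets and the genes called without NMN 4 were chosen after their values were seen. Positions of genes are from GENCODE 29 on GRCh38. The alternatives tried were no filter, a minimum of 5 TPM, pseudocounts of 0.1 and 5, quantile normalization, median-of-ratios scaling, no trend, a robust fit, the replicate number as a block, and each library left out.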

Additional observations from a re-analysis of the deposited data

Results flagged for a closer look

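In 126 groups of 4 tumors, from 63 genes, the highest or lowest tumor was checked for standing apart from the rest of its group, and 6 tumors did so, or 4.76% of groups, where chance gives about 1 in 20. SDHD, a subunit of succinate dehydrogenase, had 278 TPM in NMN 4 and 207 to 218 TPM in the other NMN tumors, a gap of 0.843 of the whole range. DBP, a clock-controlled transcription factor gene with a pattern like that of EGLN1, had 15.6 TPM in Vehicle 4 and 18.3 to 18.7 TPM in the other Vehicle tumors, also a gap of 0.843. CA12, the HIF target with the lower mean in NMN tumors, had 90.2 TPM in NMN 4 and 60.5 to 63.6 TPM in the other NMN tumors, a gap of 0.897. GBE1, which branches glycogen, had 17.4 TPM in NMN 3 and 14.9 to 15.3 TPM in the other NMN tumors, a gap of 0.831. SLC2A3 had 42.3 TPM in NMN 1 and 0.11 to 5.13 TPM in the other NMN tumors, a gap of 0.881, and it was listed at 0 in Vehicle 2 and at 0.24 to 0.27 TPM in the other Vehicle tumors, a gap of 0.889. None of the 9 HIF pathway members was among these 6, including EGLN3 in NMN 4 and HIF1A in Vehicle 4.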

How the results depend on the processing

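The number of genes that passed over all tested genes was 0 as reported and 0 in 8 of the 9 alternatives that kept all tumors. With the replicate number as a block it was 2, HSD11B2 and FCGR3B, and no member passed. With 1 tumor left out it ran from 0 to 54 (54 without NMN 4, and 1, THRSP, without Vehicle 3). Deviations of same-numbered tumors from their group means correlated at -0.123 to 0.0258. Such values cannot settle whether the numbers pair the tumors, and the labels do not state it. With the block EGLN3 had an adjusted p of 0.355 and EGLN1 one of 0.303. With 1 tumor left out, the log2 fold change of EGLN3 ran from 0.63 (without NMN 3) to 1.39 (without NMN 4), that of EGLN1 from 0.33 to 0.46, that of EPAS1 from -0.21 to -0.11, that of HIF1A from -0.15 to 0.062, that of ARNT from -0.032 to 0.18, that of VHL from 0.036 (without Vehicle 2) to 0.16 (without Vehicle 3), that of HIF1AN from -0.21 (without NMN 4) to -0.016 (without NMN 2) and that of EGLN2 from -0.045 to 0.12. HIF1A turned sign without Vehicle 4, ARNT without Vehicle 2, and EGLN2 without NMN 1 (-0.011), NMN 3 (-0.020), NMN 4 or Vehicle 3 (-0.0065), and EGLN3 was the only member that passed in any setting. For HIF3A the difference ran from 0.34 (without NMN 3) to 0.67 (without NMN 4). Genes at an unadjusted p under 0.05 with the lower mean in NMN tumors numbered 287, but 437 with no filter, 438 with median-of-ratios scaling, 514 with quantile normalization, 189 without NMN 1 or NMN 3 and 652 without NMN 4, and those with the higher mean numbered 640, but 379 without NMN 3. The medians of the glycolytic and other HIF targets ran from 0.36 to 0.62 and from 0.45 to 0.68 in the same settings. The median of the VHL ligase group ran from -0.039 (without NMN 4) to 0.046 (without NMN 3), and that of the HIF-2 group was 0.37 without NMN 4.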

Other observations

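The glucose transporter gene SLC2A3, a HIF target left out of the test because only 3 libraries reached 1 TPM, had 42.3, 5.13 and 2.16 TPM in NMN 1 to 3, against 0.11 TPM for NMN 4 and 0 to 0.27 TPM in the Vehicle tumors. It was named after its values were seen. The same 3 tumors held the highest EGLN3 and HIF3A levels, and no explanation was tested.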
